A study of Mus musculus with 8 samples.

Results

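The genes described here are 34 genes of sugar breakdown in mouse muscle, namely the glycolytic enzymes, the enzymes that set fructose 2,6-bisphosphate, the glucose and lactate transporters, cytosolic glycerol phosphate dehydrogenase, and the first and the third enzymes of the oxidative pentose phosphate pathway. They were chosen by gene symbol, and all 34 were found among the 55401 genes of the deposited table. RNA-seq was measured in whole tibialis anterior (TA) muscles of male mice at 6 mo, 4 from wild-type C57/Bl6 mice (WT) and 4 from mdx5cv mice, a model of Duchenne muscular dystrophy (DMD) on the B6 background that carries a mutant allele of the dystrophin gene Dmd in every cell. No treatment is given for either group. The labels number the muscles but do not say whether each came from a separate animal, so the p-values measure only the spread between these muscles, which may in part be technical.

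Skeletal muscle takes up glucose through GLUT4 (Slc2a4), traps it as glucose 6-phosphate with hexokinase 2, and splits it to pyruvate in a chain of enzymes of which several exist as a muscle isoform and as isoforms used by most other cells. Fast glycolytic fibers, which make up most of the mouse TA, carry large amounts of the muscle isoforms PFKM, PGAM2 and ENO3 (beta-enolase), reduce pyruvate to lactate with LDHA, and export lactate through MCT4 (Slc16a3). Many other cells, among them immature muscle cells and leukocytes, carry non-muscle isoforms such as HK1, PFKP, PGAM1 and ENO1 (alpha-enolase), and HK3 is found in immune cells.

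Between 13175524 and 14921057 reads per muscle were recovered from the deposited values. Dmd, the mutated gene, was lower in every mdx5cv muscle, at 6954 ± 857 normalized counts in WT and 3964 ± 388 in mdx5cv (mean ± SD, n = 4; limma adjusted p = 0.000177), although a count over the whole gene does not test the allele itself. The defining markers of skeletal muscle were abundant in all 8 muscles, with a summed level of 921842 to 1127610 normalized counts in WT and 653856 to 1013570 in mdx5cv. Of these 6 markers 3 were lower in mdx5cv without overlap, Ckm (log2 fold change −0.75), Mb (−1.59) and Tnnt3 (−0.63), and 0 were higher. Markers of other cell types also moved with genotype. All 7 macrophage markers were higher in mdx5cv (summed level 523 to 799 in WT and 3850 to 9202 in mdx5cv), as were all 7 markers of regenerating fibers (198 to 229 and 2539 to 9487) and 5 of 6 fibroblast markers (5726 to 8367 and 18845 to 33585). All 5 endothelial markers were lower (2513 to 3045 and 1536 to 1968), as were 3 of 4 erythrocyte markers and 3 of 4 tested adipocyte markers. Of 7 slow fiber markers 4 were higher and 1, Myl3, was lower. Among 7 fast fiber markers 3 were lower (Actn3, Tnnt3 and Tnni2), and the summed levels of the list overlapped (810073 to 1043960 and 625038 to 954678). Myh4, which was not called, makes up much of that sum (321431 to 516258 in WT). The mean log2 level of the list overlapped only narrowly, at 16.411 to 16.599 in WT and 15.788 to 16.414 in mdx5cv. Of the neutrophil markers, Csf3r was higher while S100a8, S100a9, Ly6g and Mpo had group means of at most 2.56 normalized counts. The part of these cell types in the results below was not tested. In whole muscle, fewer cells of a type and less RNA per cell cannot be told apart. Muscle 4 of the mdx5cv group stood apart, with the lowest fast fiber sum and the highest macrophage and regenerating fiber sums of all 8, and results that rest on it are given without it.

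Of the 33 genes that could be tested, 7 were higher and 14 were lower in mdx5cv TA muscle, and 12 did not pass (limma, adjusted p under 0.05 over 13677 genes). Over all genes tested, 20.9% were called higher and 20.1% lower. The 7 higher genes were Hk1, Hk3, Pfkp, Pgam1, Eno1 and the pentose phosphate genes G6pdx and Pgd. With at least 10 normalized counts required in every muscle, Hk3 was not tested and 6 genes were higher. The lower genes took in the fructose bisphosphatase Fbp2, glucose and lactate transporters, and the muscle enzymes Aldoa, Pgam2 and Eno3. A change of at least 2-fold was reached by 5 higher genes (10.3% of all genes passed both criteria as higher) and by 2 lower genes, Fbp2 and Slc2a3 (3.27% as lower). The values of 7 genes lay entirely higher in mdx5cv (20.3% of all genes) and those of 12 entirely lower (19.8%), and 11 of these 12 passed the test, the exception being Pfkm. The median log2 fold change was −0.32 over the 33 genes and 0.00 over all genes tested. These counts depend on how the muscles were put on 1 scale. With every muscle set to the same total, the median of all genes moved by 0.35 and the split became 10 higher and 5 lower; with the fast fiber markers set equal (fiber scaling), it moved by 0.29 and the split was 8 and 6. With equal totals Slc2a4, Pfkfb1, Pfkfb4, Aldoa, Gpd1, Pgk1, Pgam2, Eno3 and Slc16a1 lost their call and Gpi1, Pfkl and Eno2 were called higher; fiber scaling took the call from the same genes except Gpd1 and gave one to Gpi1. A scaling shifts every gene by nearly the same amount. By construction, then, the median of the 33 genes relative to the median gene stayed at −0.32 under both, which tests nothing.

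**Figure D1:**
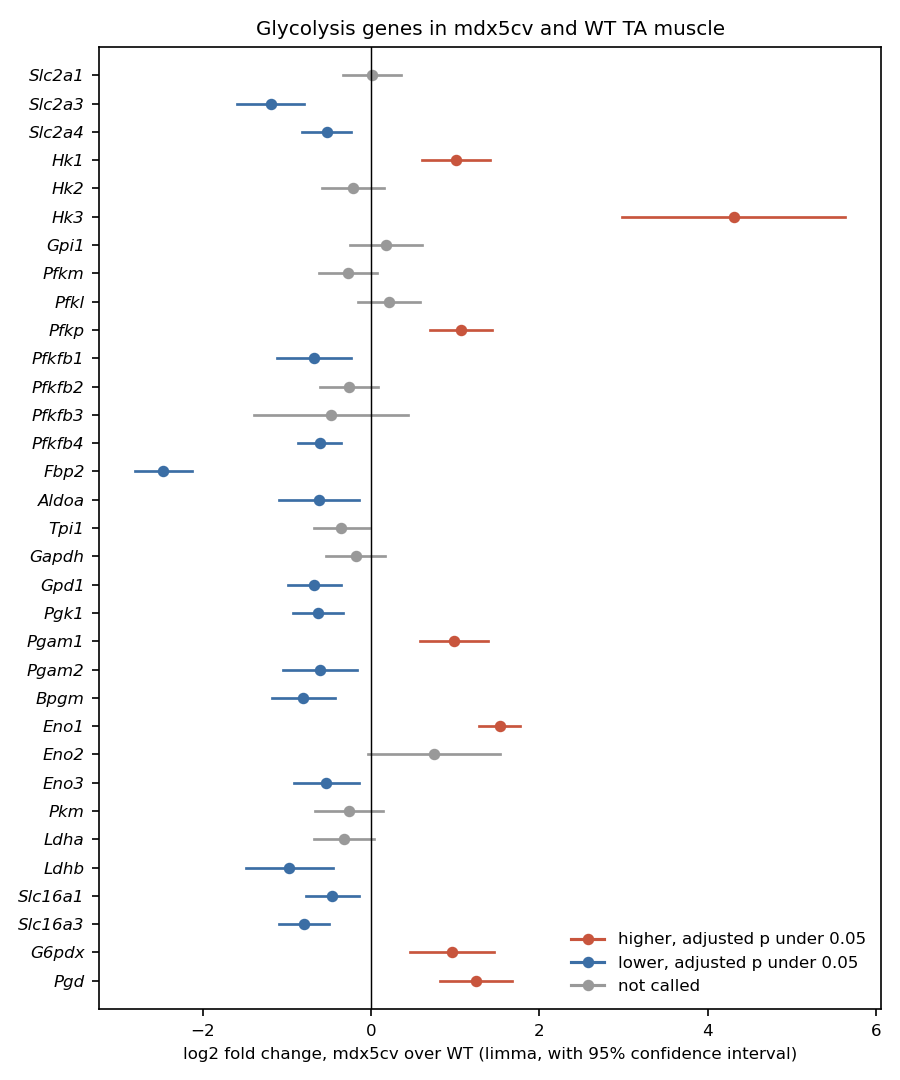
Log2 fold change (mdx5cv over WT) of the 33 tested genes, in pathway order from transporters to the pentose phosphate pathway, with bars for the 95% confidence interval from limma (n = 4 muscles a group). Red points passed as higher (7 genes), blue points as lower (14 genes) and gray points did not pass; Hk3 lies farthest to the right at 4.31 and Fbp2 farthest to the left at −2.47.

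Per kb of exon, the order of levels in WT muscle was led by Aldoa (50336 normalized counts per kb), Eno3 (28253) and Pgam2 (14949), followed by Pfkm (10706) and Gapdh (9844). The transporters and hexokinase 2 lay lower, with Slc2a4 at 1567, Hk2 at 643 and Slc16a3 at 610 per kb. At the other end stood Hk1 (9.06), Pfkp (4.99), Eno2 (2.39), Hk3 (1.61) and Aldoc (0.513). In mdx5cv muscle Aldoa (33251), Eno3 (19752.5) and Pgam2 (10056) still led the order of the means. Fbp2 passed from 364 to 65.2 per kb while Eno1 passed from 77.6 to 226, so that Eno1 lay below Fbp2 in WT and above it in mdx5cv. Pkm, Tpi1 and Ldha, at 6595, 6435 and 5988 per kb in WT, overlapped one another across muscles, as did Pgam2, Pfkm and Gapdh in mdx5cv.

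**Figure D2:**
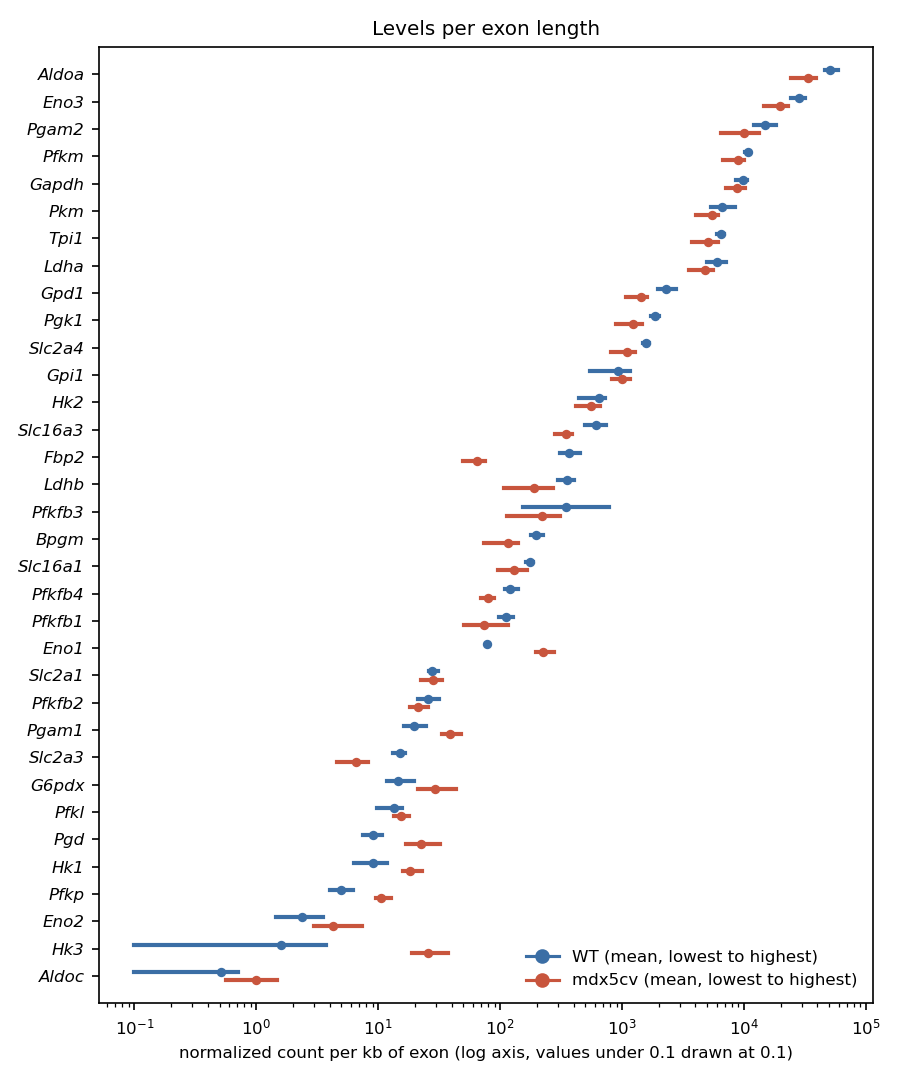
Level of each of the 34 genes in normalized counts per kb of exon on a log axis, with a point for the mean and a bar from the lowest to the highest of 4 muscles (WT blue, mdx5cv red). Aldoa leads both groups at 50336 and 33251 per kb, and the red and blue bars are well apart for Fbp2, Eno1 and Hk3.

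Of the 3 glucose transporters, 2 were lower in mdx5cv. Slc2a4, the insulin-responsive GLUT4 of muscle, had 5257, 5782, 5168 and 5596 normalized counts in the WT muscles and 3906, 4410, 4162 and 2830 in the mdx5cv muscles, with no overlap (log2 fold change −0.53 ± 0.13 SE, limma adjusted p = 0.0071). That call was lost with equal totals, where the log2 fold change was −0.17, and with fiber scaling, where it was −0.24. Slc2a3, the high-affinity transporter GLUT3, read 115, 104, 96.2 and 119.7 in WT and 60.2, 46.2, 51.3 and 33.6 in mdx5cv, so every mdx5cv muscle lay under every WT muscle (−1.19 ± 0.18, limma adjusted p = 0.000248). Slc2a1, the widely expressed GLUT1, was at 90.7 to 108 in WT and 79.2 to 116 in mdx5cv, a log2 fold change of 0.012 with a 95% confidence interval from −0.33 to 0.36.

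The hexokinases, which phosphorylate incoming glucose, differed from each other. Hk3 (ENSMUSG00000025877.14, chr13:55005985-55021385 in GRCm38) had 0, 3.29, 6.63 and 13.8 normalized counts in WT, which came from 0, 3, 6 and 13 reads, and 90.8, 83.0, 69.3 and 137 in mdx5cv. All 4 mdx5cv values were far higher than all WT values (log2 fold change 4.31 ± 0.61 SE, limma adjusted p = 0.00014), and the size of the change depends on the pseudocount because the WT values are near 0. Hk3 met the filter for testing, a mean of at least 10, only through its mdx5cv values, since its WT mean was 5.92. Its test and its place among the higher genes are limited by that. Hk1, the hexokinase of most tissues, rose from 77.3 ± 19.2 to 154 ± 26.2 (mean ± SD, n = 4), with WT values of 101, 53.7, 77.4 and 77.3 and mdx5cv values of 145, 142, 137 and 193. Hk2, the main hexokinase of insulin-sensitive muscle, had 4329, 2646, 4048 and 4339 in WT and 3389, 3927, 3336 and 2508 in mdx5cv; the groups overlapped and the gene did not pass (−0.21, limma adjusted p = 0.345). WT muscle 2 was low for Hk2, and without it the log2 fold change was −0.38 and passed (limma adjusted p = 0.0437). Gpi1, which converts glucose 6-phosphate to fructose 6-phosphate, also had its lowest value in WT muscle 2 (3542, against 6244 to 7530 in the other WT muscles and 5380 to 7535 in mdx5cv) and did not pass.

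Phosphofructokinase catalyses the committed step of glycolysis. Its muscle subunit Pfkm read 34511, 37160, 34109 and 37246 in WT and 30333, 33561, 33118 and 22446 in mdx5cv; the groups did not overlap but the gene did not pass the test (log2 fold change −0.28, 95% confidence interval −0.62 to 0.07). The platelet-type subunit Pfkp was higher in every mdx5cv muscle, at 134, 129, 128 and 169 against 56.2, 53.7, 75.2 and 82.6 in WT (1.07 ± 0.17 SE, limma adjusted p = 0.000325). The liver-type subunit Pfkl overlapped between groups at 64.7 to 105 in WT and 90.8 to 119 in mdx5cv.

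Fructose 2,6-bisphosphate, the activator of phosphofructokinase, is made and removed by the 4 PFKFB enzymes. Pfkfb4 was lower without overlap (539 to 684 in WT and 339.6 to 430.2 in mdx5cv, log2 fold change −0.61), and Pfkfb1 was lower with 1 mdx5cv muscle, at 469, inside the WT range of 394 to 512 (−0.68). The Pfkfb1 call was lost without mdx5cv muscle 4 (limma adjusted p = 0.0531) and without WT muscle 1 (adjusted p = 0.0553). Pfkfb2 did not pass, at 154 to 228 and 131.5 to 184. Pfkfb3 read 1717, 1742, 1157 and 5857 in WT and 1195, 2340, 2263 and 854 in mdx5cv, and 1 WT muscle, number 4, set the direction of its log2 fold change, which was −0.48 with that muscle and 0.012 without it.

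Fbp2, the muscle fructose bisphosphatase, which runs the phosphofructokinase step backwards in glycogen synthesis from lactate, showed the lowest log2 fold change of the 33 genes. Fbp2 (ENSMUSG00000021456.8, chr13:62836877-62858422 in GRCm38) had 480.2, 452, 537 and 669 normalized counts in WT and 107, 109, 72.9 and 94.3 in mdx5cv. All 4 mdx5cv muscles, muscle 4 included, lay within a narrow range well under the WT values, 5.58-fold lower on the group means (log2 fold change −2.47 ± 0.16 SE, limma adjusted p = 4.69e-07). It kept its call in all 22 alternatives.

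**Figure D3:**
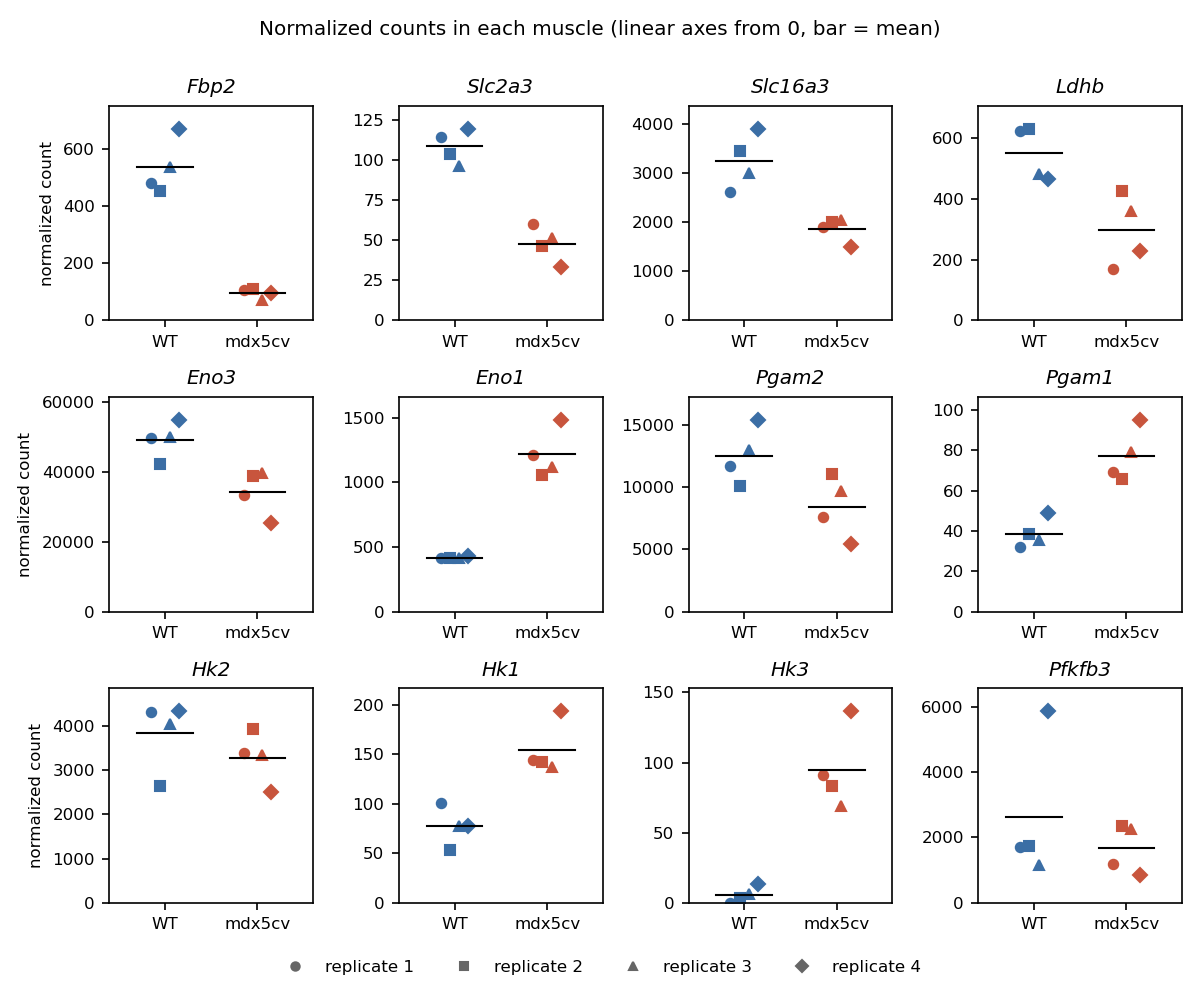
Normalized counts of 12 genes in each muscle, on linear axes from 0, with the replicate number as the symbol and a bar at the group mean (n = 4, WT blue, mdx5cv red). Fbp2, Slc2a3 and Slc16a3 lie lower and Eno1, Pgam1, Hk1 and Hk3 higher in every mdx5cv muscle, whereas Hk2 and Pfkfb3 overlap, the latter with 1 WT muscle at 5857.

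In the middle of the pathway, aldolase cleaves fructose 1,6-bisphosphate. Aldoa, the aldolase of muscle, was the most abundant of the 34 genes and took 0.648% to 1.04% of all reads of a muscle. It read 134458, 170160, 139409 and 142081 in WT and 95615, 112393, 108760 and 70407 in mdx5cv, without overlap (log2 fold change −0.62 ± 0.22 SE, limma adjusted p = 0.0396). Its call was lost in 6 of the 8 fits that left out 1 muscle (adjusted p up to 0.102, without WT muscle 2), in which the log2 fold change stayed between −0.54 and −0.68. Aldoc had 0 to 2 reads per WT muscle and was not tested. Tpi1, triose phosphate isomerase, did not pass (16383 to 18714 in WT and 10396 to 16850 in mdx5cv), and neither did Gapdh (35476 to 43774 and 29415 to 41849), a common reference gene, whose log2 fold change was −0.18 but 0.18 with equal totals. Pgk1, phosphoglycerate kinase, which makes the first ATP of the pathway, was lower at 3849.6 to 4468 in WT and 2011 to 3271 in mdx5cv (−0.63, limma adjusted p = 0.0027). Gpd1, which moves the electrons of NADH onto glycerol phosphate, was lower at 5859.7 to 8137 and 3176 to 4767 (−0.67, limma adjusted p = 0.00273).

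Phosphoglycerate mutase is coded by a muscle and a non-muscle gene, which were called in opposite directions. Pgam2, the muscle gene, read 11716, 10122, 12969 and 15420.3 in WT and 7624, 11055, 9687 and 5424 in mdx5cv, with mdx5cv muscle 2 inside the WT range (log2 fold change −0.61 ± 0.20 SE, limma adjusted p = 0.0288). Pgam1, the gene of most other tissues, read 32.1, 38.4, 35.4 and 48.7 in WT and 69.5, 66.0, 79.2 and 95.1 in mdx5cv, and all mdx5cv muscles lay higher (0.99 ± 0.19, limma adjusted p = 0.00103). Bpgm, which makes 2,3-bisphosphoglycerate, was lower without overlap, at 638 to 799 in WT and 266 to 501 in mdx5cv (−0.80). The Pgam2 call was lost without mdx5cv muscle 4 (adjusted p = 0.0601, log2 fold change −0.41) and in 4 of the other 7 fits that left out 1 muscle.

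Because Pgam2 and Pgam1 code for the same reaction and moved in opposite directions, the 250 bases before their RefSeq starts are shown (GRCm38.p6), together with those of Fbp2, the gene with the lowest fold change. Pgam2 lies at chr11:5803797-5804046 on the minus strand, Pgam1 at chr19:41911621-41911870 on the plus strand and Fbp2 at chr13:62858401-62858650 on the minus strand. Each is written 5′ to 3′ in the direction of its gene, and capitals mark every match on either strand to CAGCTG (an E-box of the kind bound by myogenic factors), ACGTG (the core shared by hypoxia response elements and CACGTG E-boxes), TATAAA, the GC box GGGCGG or the MEF2 consensus.
Pgam2: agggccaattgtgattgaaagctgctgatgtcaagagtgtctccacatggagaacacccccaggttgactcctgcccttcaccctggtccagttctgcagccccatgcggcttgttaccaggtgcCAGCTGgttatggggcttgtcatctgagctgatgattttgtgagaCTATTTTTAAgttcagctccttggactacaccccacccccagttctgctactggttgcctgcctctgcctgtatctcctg
Pgam1: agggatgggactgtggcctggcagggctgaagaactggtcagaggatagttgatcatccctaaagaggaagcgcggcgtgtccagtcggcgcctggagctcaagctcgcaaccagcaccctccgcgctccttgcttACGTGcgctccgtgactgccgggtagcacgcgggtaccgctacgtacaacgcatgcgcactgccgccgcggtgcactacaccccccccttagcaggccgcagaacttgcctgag
Fbp2: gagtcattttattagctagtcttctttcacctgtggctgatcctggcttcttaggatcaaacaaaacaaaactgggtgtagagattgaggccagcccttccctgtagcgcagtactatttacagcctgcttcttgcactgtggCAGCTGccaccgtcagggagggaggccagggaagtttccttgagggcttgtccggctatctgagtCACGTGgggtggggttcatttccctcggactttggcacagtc
In Pgam2 the CAGCTG lay 125 to 120 bases before the start and the MEF2 match 80 to 71 bases before it. Pgam1 held 1 ACGTG, 114 to 110 bases before the start, and no CAGCTG or MEF2 match in this window. Fbp2 held CAGCTG 107 to 102 bases before its start and ACGTG on both strands, overlapping in a CACGTG. Of the 34 genes 31 had a RefSeq window and Slc2a3, Slc2a4 and Gpd1 had none. The MEF2 consensus was present in 2 of 11 genes called lower (Pgam2 and Pfkfb1), in 0 of 7 called higher and in 0 of 12 not called, against 2.92% of all 32851 windows. CAGCTG was present in 3 of 11 lower genes (Fbp2, Pfkfb1 and Pgam2), 0 of 7 higher genes and 3 of 12 not called (13.0% of all windows). ACGTG was found in 5 of 11, 2 of 7 and 7 of 12 (16.6%), GGGCGG in 7 of 11, 4 of 7 and 8 of 12 (32.7%), and TATAAA in 1 of 11, 0 of 7 and 1 of 12 (12.4%). A gene with several starts was counted as holding a motif when any of its windows held it, while the shares are per window. These matches describe the letters alone, and binding was not measured here.

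The enolases gave the change with the smallest spread. Eno1, alpha-enolase (ENSMUSG00000063524.13, chr4:150236721-150248879 in GRCm38), read 411, 414, 411 and 433 in WT and 1209, 1057, 1117 and 1481 in mdx5cv, so the lowest mdx5cv muscle was over the highest WT muscle by a wide margin (2.91-fold on the group means, log2 fold change 1.53 ± 0.11 SE, limma adjusted p = 1.18e-06). Eno3, the muscle beta-enolase (ENSMUSG00000060600.15, chr11:70657202-70662513), read 49614, 42111, 49976 and 54827 in WT and 33503, 38796, 39785 and 25313 in mdx5cv, lower without overlap (−0.53 ± 0.18, limma adjusted p = 0.0299). Its call was lost without WT muscle 1, 3 or 4 or mdx5cv muscle 1 (adjusted p 0.0658 to 0.0754), at log2 fold changes of −0.48 to −0.53. Eno2, the neuronal enolase, had 6.88 to 16.6 and 13.9 to 34.4 and did not pass. Pkm, pyruvate kinase, whose M1 and M2 forms the table does not separate, overlapped at 27047 to 42518 in WT and 20062 to 30334.5 in mdx5cv and did not pass.

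At the lactate step, Ldha, the dehydrogenase subunit that favours lactate formation, overlapped (16550 to 23758 in WT and 11800.3 to 18489.7 in mdx5cv, log2 fold change −0.32) and did not pass. Ldhb, the subunit of heart and oxidative fibers, was lower in every mdx5cv muscle, at 170.5, 427, 362 and 228 against 626, 632, 482 and 467 in WT (−0.97 ± 0.24 SE, limma adjusted p = 0.00556). Slc16a3, the lactate exporter MCT4, read 2621, 3438, 3009.6 and 3899 in WT and 1905, 1996, 2051 and 1490.3 in mdx5cv, lower without overlap (−0.80 ± 0.14, limma adjusted p = 0.000601). Slc16a1, the transporter MCT1 of oxidative fibers, was lower with 1 mdx5cv muscle (730.2) inside the WT range of 720.3 to 824 (−0.46, limma adjusted p = 0.0218), and its call was lost without mdx5cv muscle 4, at an adjusted p of 0.0527, and without WT muscle 1, WT muscle 3 or mdx5cv muscle 1 (adjusted p 0.0611, 0.0625 and 0.0723).

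Both genes of the oxidative pentose phosphate pathway, which branches from glucose 6-phosphate and makes NADPH, were higher. G6pdx, its first enzyme, read 42.4, 36.2, 39.8 and 60.4 in WT and 79.7, 79.2, 64.8 and 135 in mdx5cv (log2 fold change 0.96 ± 0.23 SE, limma adjusted p = 0.00513). Pgd, the third enzyme, read 56.2, 60.3, 48.6 and 69.9 in WT and 134, 125, 109 and 208 in mdx5cv (1.25 ± 0.20, limma adjusted p = 0.0003). Neither gene overlapped between groups, and mdx5cv muscle 4 was the highest for each. That muscle also held the highest mdx5cv value for all 7 genes called higher and the lowest for 11 of the 14 called lower. All 7 higher calls held without it, and 11 genes were then called lower.

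The ratio of a muscle isoform to another isoform within 1 muscle hardly depends on how the muscles are scaled. Only the pseudocount of 1 ties it to the scale, and this matters where an isoform has few reads. In 7 of 12 such pairs the log2 ratio was lower in mdx5cv without overlap, in 1 pair it was higher without overlap, and in 4 pairs the groups overlapped. Of single genes tested, 19.8% lay entirely lower in mdx5cv and 20.3% entirely higher. The share among ratios of other genes was not computed. Hk2, Pfkm, Eno3 and Slc2a4 each enter more than 1 pair, so the pairs are not independent. The lower pairs include those over Hk1, Hk3, Pfkp, Pgam1 and Eno1, each already called higher. With 4 muscles against 4, any pair without overlap has by construction the smallest p of the exact two-sided permutation test, 0.0286. This p of the 8 non-overlapping pairs (0.0429 after Benjamini-Hochberg adjustment over the 12 pairs) therefore restates the lack of overlap and adds no support. The Eno3 to Eno1 log2 ratio was 6.91, 6.67, 6.92 and 6.98 in WT and 4.79, 5.20, 5.15 and 4.09 in mdx5cv, so the ratio itself was 4.17-fold lower. For Pgam2 to Pgam1 it was 8.47, 8.01, 8.48 and 8.28 in WT and 6.76, 7.37, 6.92 and 5.82 in mdx5cv, a 3.02-fold lower ratio. Mdx5cv muscle 4 had the lowest value in both pairs. The Pfkm to Pfkp ratio was 2.54-fold lower, the Hk2 to Hk1 ratio 2.33-fold and the Eno3 to Eno2 ratio 2.42-fold. The last rests on 6 to 15 Eno2 reads per WT muscle, and Eno2 itself overlapped between groups and did not pass. Its size also rests on mdx5cv muscle 4, at a log2 ratio of 9.48. The other mdx5cv muscles were at 11.08 to 11.33, close under the WT values of 11.47 to 12.62. The Hk2 to Hk3 ratio was 23.0-fold lower on this scale, a size that rests on the few Hk3 reads of WT, and the Aldoa to Aldoc ratio (2.56-fold) rests on 0 to 2 Aldoc reads per WT muscle. Without a pseudocount, the Aldoc share of the aldolase counts overlapped, at 0% to 0.00170% in WT and 0.00168% to 0.00681% in mdx5cv. The separation of the Aldoa to Aldoc pair, and its p-value, therefore depend on the pseudocount.

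Among the transporters the pattern differed. The Slc2a4 to Slc2a3 log2 ratio was higher in mdx5cv without overlap (5.64 ± 0.14 in WT and 6.30 ± 0.23 in mdx5cv, mean ± SD, n = 4; exact permutation p = 0.0286), since Slc2a3 fell by more than Slc2a4. The log2 ratio differences of the 4 overlapping pairs were −0.54 for Slc2a4 to Slc2a1, −0.49 for Pfkm to Pfkl and 0.65 for Ldha to Ldhb (exact permutation p = 0.0571 each), and −0.33 for Slc16a3 to Slc16a1 (exact permutation p = 0.2). The muscle isoform of each pair was the one with the higher level in these muscles, whatever its use in other tissues. Of the 8 muscle isoforms in these pairs, 0 were called higher and 5 lower. Of the 11 tested other isoforms, 5 were called higher and 3 lower (Slc2a3, Ldhb and Slc16a1), beside 20.9% higher and 20.1% lower of all genes. With equal totals or fiber scaling, 4 of the 5 lower muscle isoforms (Slc2a4, Aldoa, Pgam2 and Eno3) lost their call and Slc16a3 kept it.

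**Figure D4:**
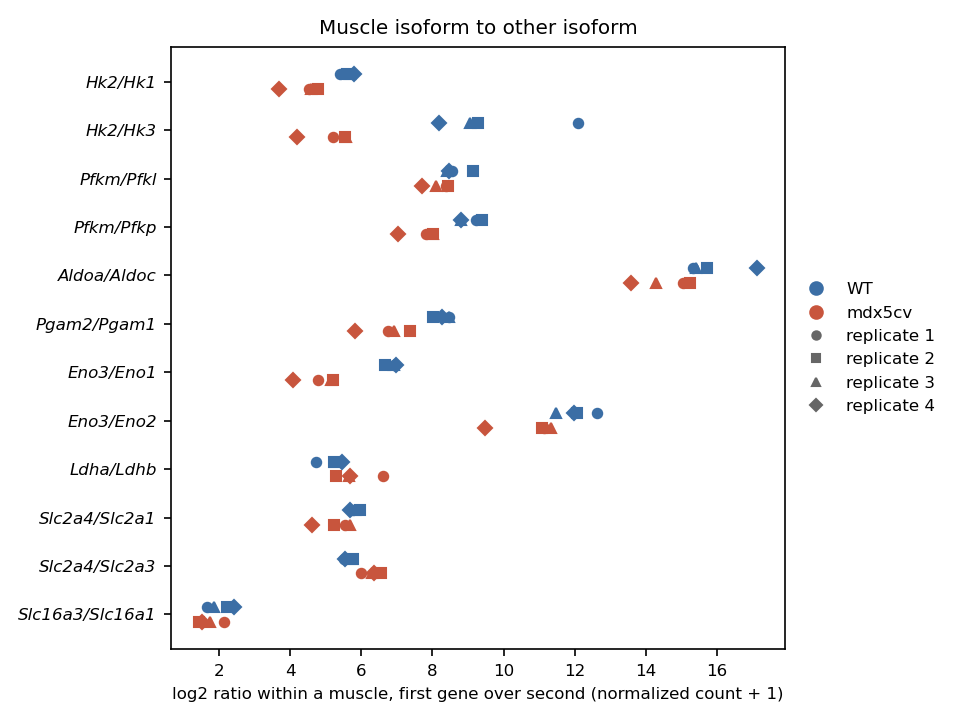
Log2 ratio of the muscle isoform to another isoform within each muscle, from normalized counts with a pseudocount of 1, for 12 pairs (4 WT muscles blue, 4 mdx5cv muscles red, symbols for the replicate number). Red points lie entirely to the left in 7 pairs and entirely to the right for Slc2a4/Slc2a3.

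The muscle isoforms remained the bulk of each family's level per kb. Eno3 made up 99.7% ± 0.0271 of the enolase level in WT and 98.8% ± 0.475 in mdx5cv (mean ± SD, n = 4), while Eno1 passed from 0.276% to 1.19%. Hk2 made up 98.4% of the hexokinase level in WT and 92.3% in mdx5cv, Hk1 1.39% and 3.15%, and Hk3 0.241% and 4.55%. Per kb, Hk3 thus exceeded Hk1 in the mdx5cv mean but not in WT, an order that depends on the exon lengths used. In counts not divided by length, Hk1 held 4.52% and Hk3 2.82% of the hexokinases in mdx5cv. On that scale Eno1 held 3.59% of the enolases in mdx5cv. Pgam2 held 99.9% of the mutase pair in WT and 99.6% in mdx5cv, and Pfkm 99.8% and 99.7% of the phosphofructokinases. The share of Ldha was 94.4% and 96.2%, with overlapping groups, and MCT4 (Slc16a3) held 77.4% ± 4.13 and 73.1% ± 4.16 of the lactate transporter pair, also overlapping.

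Of 73 further genes of the pathway, 59 were tested, and 9 were higher, 21 lower and 29 not called, beside 20.9% higher and 20.1% lower of all genes. With equal totals these counts became 16 higher and 9 lower, and with fiber scaling 7 were lower. Slc2a6, Emb and Pdk3 were higher by at least 2-fold with no overlap. Slc2a6, a hexose transporter of leukocytes, had 0 to 1.11 normalized counts in WT, which is at most 1 read per muscle, and 20.7 to 85.5 in mdx5cv. Emb (embigin), a chaperone of monocarboxylate transporters, had 7.74 to 19.5 and 41.5 to 91.9, and Pdk3, a kinase that inhibits pyruvate dehydrogenase, 4.58 to 15.4 and 19.8 to 49.5.

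The genes that bring pyruvate into the mitochondrial matrix and oxidize it had 10 of 15 called lower and 1 called higher. Of all genes tested, 20.9% were called higher and 20.1% lower, and these shares stand beside each count in this paragraph. With fiber scaling only 7 of the 59 further genes tested were lower, so not all of these 10 kept their call. Both subunits of the mitochondrial pyruvate carrier were among the 10 called lower, Mpc1 at 1136 to 2048 in WT and 619 to 879 in mdx5cv (log2 fold change −0.91) and Mpc2 at 1417 to 2640.2 and 797 to 1139.6 (−0.94). These and the genes named in the next sentences were chosen after their values were seen. Among the NADH shuttles 0 of 7 were higher and 3 lower, namely Mdh1, Slc25a11 and Slc25a12. In the rest of the pentose phosphate pathway 1 of 6 tested genes, the transketolase Tkt, was higher (0.75) and 0 were lower. Other transporters and chaperones were called higher 4 times in 10 (Slc2a6, Emb, Slc2a9 and Slc16a7) and lower 2 times (Slc2a12 and Bsg, which escorts MCT1 and MCT4 to the membrane). Among other enzyme isoforms, the mitochondrial glycerol phosphate dehydrogenase Gpd2 was lower (−0.70). Of 15 regulators 3 were higher, the transcription factor Myc and the splicing factors Ptbp1 and Hnrnpa1, which act on Pkm splicing, and 4 were lower, Epas1, Tbc1d1, Tigar and Txnip, the last an inhibitor of glucose uptake (−1.05, with overlapping groups). Hif1a did not pass (0.29, limma adjusted p = 0.0964).

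**Figure D5:**
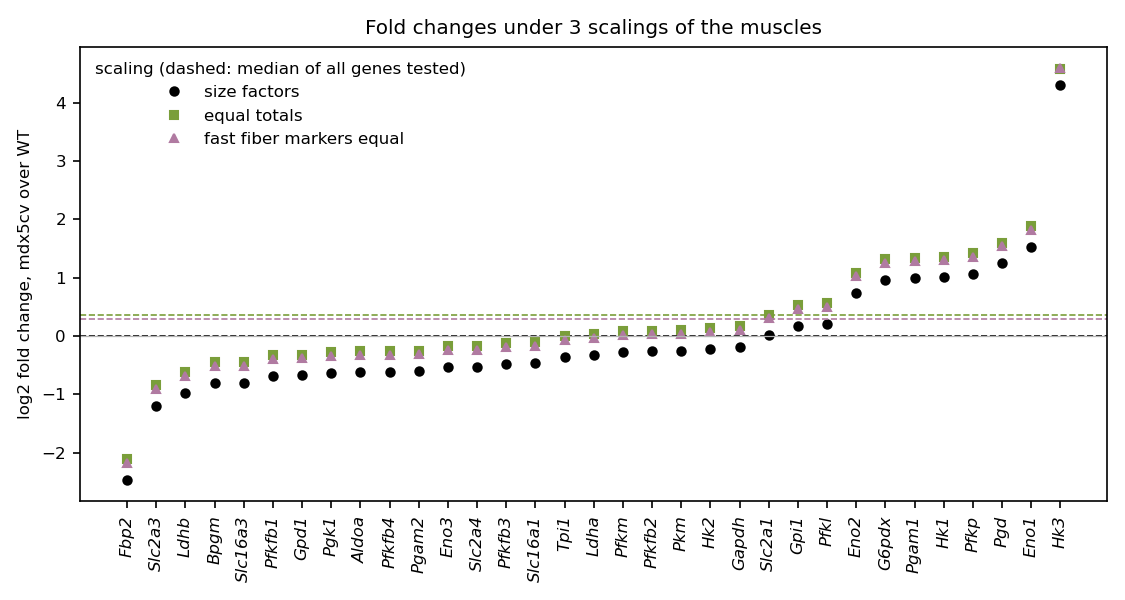
Log2 fold change (mdx5cv over WT) of the 33 tested genes under 3 scalings: the size factors of the deposited values (black circles), equal totals per muscle (green squares) and equal fast fiber markers (purple triangles). Dashed lines mark the median of all 13677 genes under each, at 0.00, 0.36 and 0.29, and the genes move up together with that median. The 7 called higher keep their call under all 3, as do Fbp2, Slc2a3, Ldhb, Bpgm and Slc16a3 among those called lower.

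The summed level of the 34 genes was 366108 to 412582 normalized counts in WT and 218004 to 330634 in mdx5cv, without overlap. As a share of all reads, however, it was 2.17% to 2.78% in WT and 2.01% to 2.53% in mdx5cv, and the groups overlapped. Genes encoded by mitochondrial DNA took 30.0% to 38.7% of reads in WT and 25.3% to 32.1% in mdx5cv. Among copies of the 34 genes recognized by their symbol, 18 held reads, at no more than 49.8 normalized counts in any muscle. A second annotated Aldoa locus held at most 13.6. Copies under other names were not sought. Reads that such copies share with Aldoa, Gapdh, Ldha, Ldhb, Pgam1, Eno1, Gpi1, Tpi1 or Pgk1 may have been dropped or split in the counting. The levels of those genes are uncertain to that extent.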

How the data were processed

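RNA of 4 WT and 4 mdx5cv whole TA muscles was sequenced (Trizol, reverse-stranded total RNA libraries). Per the submitters' processing notes the authors used FastQC, Trim Galore 0.6.4, STAR 2.6.0c, SAMtools 1.9, featureCounts, MultiQC 1.6 and DESeq2 1.26.0 under R 3.6.2 with mm10. The strand setting of counting is not given in the sources used here. The authors deposited a signal per gene, the count divided by a size factor. Dividing by the size of 1 read gave whole reads for 100% of values (tolerance 1e-06). Reads of replicates differed by more than counting noise (chi-square per degree of freedom 8.59 to 38.4), so none was merged as a repeat deposit of 1 library. This does not test whether the muscles came from separate animals.

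Genes with a mean of at least 10 (13677) were tested with limma 3.58.1 on log2(normalized count + 1), which understates changes of low genes. P-values were adjusted over all genes tested (Benjamini-Hochberg), and calls were made under 0.05. Fold changes are on that scale unless said to be on group means. edgeR 4.0.16 (quasi-likelihood) and DESeq2 1.42.0 on the recovered reads, other scalings, filters and pseudocounts were alternatives. Scripts were tested on simulated data. Levels per kb used exon lengths of GENCODE M21 (55141 of 55401 IDs matched, versions ignored). Promoter windows came from RefSeq (GRCm38.p6). All 34 genes, the 12 isoform pairs, markers, and further pathway genes passing at 2-fold or more without overlap are named, except 1 gene that is not reported here. Members, pairs and lists were chosen with earlier results of these data known, and 3 alternatives (equal totals without mitochondrially encoded genes, fiber scaling, and leaving out WT 2 with mdx5cv 4) were added after seeing the data.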

Additional observations from a re-analysis of the deposited data

Results flagged for a closer look

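A muscle lay far from the other 3 by Dixon's test in 6 sets of 4 muscles (critical value 0.829), out of 88 sets, of which chance would flag about 4.4 at 1 in 20. On the log2(normalized count + 1) scale, Hk1 in mdx5cv muscle 4 was 7.60, above the others at 7.11 to 7.19. Pkm in the same muscle was 14.29, below the others at 14.86 to 14.89, and its Eno3 to Eno2 log2 ratio was 9.48, below 11.08 to 11.33. In WT muscle 2, Hk2 was 11.37, below 11.98 to 12.08, and the Pfkm to Pfkl log2 ratio was 9.14, above 8.42 to 8.54. Eno1 in WT muscle 4 was 8.76, above 8.69 to 8.70, a gap that is small beside the difference between the genotypes.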

How the results depend on the processing

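Over 22 alternatives, 12 of the 21 called genes kept their call wherever they were tested (7 higher: Hk1, Hk3, Pfkp, Pgam1, Eno1, G6pdx, Pgd; 5 lower: Slc2a3, Fbp2, Bpgm, Ldhb, Slc16a3), and 9 lower genes lost it at least once, each time in the same direction. A filter of at least 10 in every muscle leaves Hk3 untested. edgeR, DESeq2, TMM factors, both pseudocounts and the replicate block each gave 7 higher and 14 lower. Same-numbered muscles deviated together only weakly (r = 0.0501, 0.0309, 0.0722 and 0.146), so the numbers were not taken as pairs; with the replicate block, ratios of 9 pairs were lower and 2 higher in every same-numbered difference.

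Lower calls among the 33 genes numbered 5 with equal totals, 6 with fiber scaling, 10 with equal totals without mitochondrial genes, and 9 to 14 with 1 muscle left out (9 without WT muscle 1). Calls higher by at least 2-fold numbered 8 with equal totals and 3 with centring, with a pseudocount of 10 and with WT 2 and mdx5cv 4 both left out, and 3 to 7 with 1 muscle left out (3 without WT 2 and 3 without mdx5cv 4; Hk1 and Pfkp lie near the threshold). Lower calls of at least 2-fold fell to 1 with equal totals, with or without mitochondrial genes, and with fiber scaling, and were 2 to 3 with 1 muscle left out. Of the further pathway genes, 16 were higher and 9 lower with equal totals, 7 lower with fiber scaling, and 4 higher with the stricter filter.

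Over all genes, 5444 were higher and 820.0 lower with equal totals, 1398 lower without mitochondrial genes in the totals and 638 with fiber scaling. At 2-fold or more, 2256 were higher and 210.0 lower with equal totals, 281 lower without mitochondrial genes, 227 with fiber scaling, 729 higher and 275 lower with the stricter filter, and 2202 higher with no filter. Ratios of 1 to 2 pairs were higher without overlap with 1 muscle left out (2 without WT 4 or mdx5cv 2), and of 7 to 8 lower (6 with a pseudocount of 0.1).

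Log2 fold changes that reversed belonged to genes not called. Equal totals gave Hk2 0.14, Pfkm 0.082, Pfkfb2 0.094, Tpi1 0.0034, Gapdh 0.18, Pkm 0.097 and Ldha 0.038. Fiber scaling gave Hk2 0.078, Pfkm 0.015, Pfkfb2 0.029, Gapdh 0.11 and Pkm 0.030. Gapdh was 0.029 with equal totals without mitochondrial genes. Pkm was 0.013 and Slc2a1 −0.093 with WT 2 and mdx5cv 4 left out, and Slc2a1 was −0.083 with centring and −0.075 to 0.11 with 1 muscle left out (below 0 without WT 2, WT 3, mdx5cv 2 or mdx5cv 4). With 1 muscle left out, Gpi1 was −0.052 (without WT 2) to 0.31 and Pfkfb3 −0.77 to 0.012 (without WT 4). The cause was not tested, beyond the shift of all genes that a scaling brings by construction. Depth limits Aldoc, Eno2, Hk3 in WT and Slc2a6 in WT, which rest on few reads.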
